A study of Mus musculus with 16 samples.

Results

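The cells described here are the 335 of 4186 colon tumour organoid cells with the highest summed signal of 8 genes, Cxcl14, Lce1h, Cadps, Rhoj, Mgp, Ngfr, Plat and Arhgdib. Barcodes of both libraries were kept at 1000 or more detected genes, 2000 or more UMIs (unique molecular identifiers, 1 for each captured RNA molecule) and at most 20% mitochondrial UMIs. Each kept cell was scored by the mean over the 8 genes of ln(1 + 10000 × UMIs of the gene / UMIs of the cell), and the top 8% of the pooled cells were taken. These cells are called Plat-Ngfr-Cxcl14 cells below, and all other kept cells of the same library are called other cells. Because the score chose the cells, the levels of the 8 genes in them are a description, and the same holds for every comparison of these cells with other cells, since all genes were read from the same transcriptomes. The organoids came from mouse colon tumours induced with azoxymethane, a carcinogen, and dextran sodium sulfate, which injures the colon lining, and were at passage 14. The group minus TAM is labelled KMT9wt/wt and the group plus TAM is labelled KMT9ko/ko, and an effect of TAM cannot be told apart from an effect of the genotype. The deposited names of both matrices also give day 5, which no label explains. Each group is 1 library, its 8 records being parts of it by the design text, so no test across replicates was possible. A 95% interval given below covers counting error only.

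Plat encodes tissue-type plasminogen activator, a secreted protease that turns plasminogen into plasmin, and Ngfr encodes p75, a low-affinity receptor for neurotrophins that also marks progenitor-like cells of several epithelia. Cxcl14 encodes a chemokine made by epithelia and by fibroblasts, and Mgp encodes matrix Gla protein, an inhibitor of calcification. Cdx2 is the transcription factor that keeps intestinal epithelium intestinal, and tumours or cells that lose it can take on features of other epithelia. Cdx2 was not part of the score.

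The minus TAM matrix held 3618 barcodes and 72223578 UMIs, and the plus TAM matrix 2078 barcodes and 38860718 UMIs. The filters kept 2687 and 1499 cells with medians of 24759 and 24272 UMIs. The 2 matrices shared 498 barcodes, of which 178 were among the kept cells of minus TAM and 334 among those of plus TAM. Of the Plat-Ngfr-Cxcl14 cells, 0 of 49 in minus TAM and 88 of 286 in plus TAM carried a shared barcode, so values for plus TAM are also given for cells whose barcode stands in 1 matrix only. For those 88 barcodes the minus TAM copy was the smaller in 85, with a median of 714 UMIs against 24793, and 5 of the minus TAM copies were kept. N6amt1, the gene of the catalytic subunit of KMT9, stood at 31.1 CPM (counts per 1000000 UMIs of the summed cells) in the minus TAM Plat-Ngfr-Cxcl14 cells and at 9.06 CPM in those of plus TAM, against 34.4 and 5.4 CPM in other cells. An N6amt1 UMI was found in 53.1% and 18.5% of the Plat-Ngfr-Cxcl14 cells, and in 53% and 12% of other cells. The direction was that of the labels. The reads come from the 3′ end of transcripts, and which exon was deleted is not stated in the labels, so reads outside the deleted part may remain.

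Plat-Ngfr-Cxcl14 cells were scarce in minus TAM and common in plus TAM. They made up 49 of 2687 kept cells in minus TAM, 1.82% (exact interval 1.35 to 2.40), and 286 of 1499 in plus TAM, 19.1% (17.1 to 21.2). Among barcodes found in 1 matrix the shares were 1.95% of 2509 cells and 17.0% of 1165 cells. Among shared barcodes they were 0 of 178 and 88 of 334 (26.3%). The 4 pools compared below had similar depth, with medians of 24345 UMIs in the minus TAM Plat-Ngfr-Cxcl14 cells, 23474 in those of plus TAM, and 24764 and 24632 in other cells. Their median mitochondrial shares were 3.37% and 3.39%, against 2.88% and 2.72%. The minus TAM pool is small, 49 cells and 1220237 UMIs, and ratios that involve it have the widest intervals.

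Plat was the largest single term of the score. A Plat UMI was present in 97.3% of the Plat-Ngfr-Cxcl14 cells and 56.8% of other cells, it gave 44.7% of the summed score and was the largest term in 235 of the 335 cells. Plat (chr8:22757727-22782844, mm10) stood at 603 CPM against 63.2 in other cells in minus TAM and at 801 against 160.2 CPM in plus TAM. Cadps (chr14:12372563-12823079), which encodes a priming factor for the release of dense-core vesicles, was detected in 76.4% of the cells against 18.4%. Ngfr (chr11:95568818-95587735) was detected in 53.7% against 6.75%, at 63.1 against 4.53 CPM in minus TAM and 80.4 against 5.82 CPM in plus TAM. The other 5 genes were each seen in a minority of the chosen cells. Arhgdib (chr6:136923655-136941899), an inhibitor of small GTPases, was detected in 39.7%, although its exons overlap Pde6h on the opposite strand and no source used here says whether strand was counted. Cxcl14 (chr13:56288643-56296551) was detected in 33.4% of the cells and 2.99% of other cells, and Rhoj (chr12:75308322-75401456), a Cdc42-like GTPase, in 31.0% and 2.03%. Mgp (chr6:136872435-136875823) was detected in 25.4% and 1.35%. Lce1h (chr3:92763215-92765065), a late cornified envelope gene of the skin barrier, was detected in 14.9% and 3.38%, and 9.97% of the 50-base words in the last 400 bases of its transcript also occur in other Lce1 genes.

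The 8 genes did not occur together in most of the cells. The median cell held UMIs of 4 of them, 92 cells (27.5%) held 5 or more, and none held all 8. When each gene was left out of the score in turn and the top 8% taken anew, the gene left out was still higher in the chosen cells in both libraries, for instance 35.8-fold and 10.7-fold for Cxcl14, 76.1-fold and 20.2-fold for Mgp, 6.13-fold and 5.99-fold for Ngfr, and 3.39-fold and 2.98-fold for Plat. Lce1h had the smallest ratio in plus TAM, 1.55-fold against 4.70-fold in minus TAM. The 8 genes were chosen with earlier results of these data known, so these ratios are a description and no support for the set. Within the chosen cells, Spearman coefficients between pairs of the 8 genes ran from -0.24 to 0.40 in minus TAM and from -0.23 to 0.26 in plus TAM. Without Plat, 252 of the 335 cells (75.2%) were chosen again. The threshold cuts a continuous range, with the lowest chosen cell at 0.3664 and the highest other cell at 0.3653, medians of 0.483 and 0.0518, and a maximum of 1.30. Of the 20 cells just inside it 18 came from plus TAM, and of the 20 just outside 15 did.

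**Figure D1:**
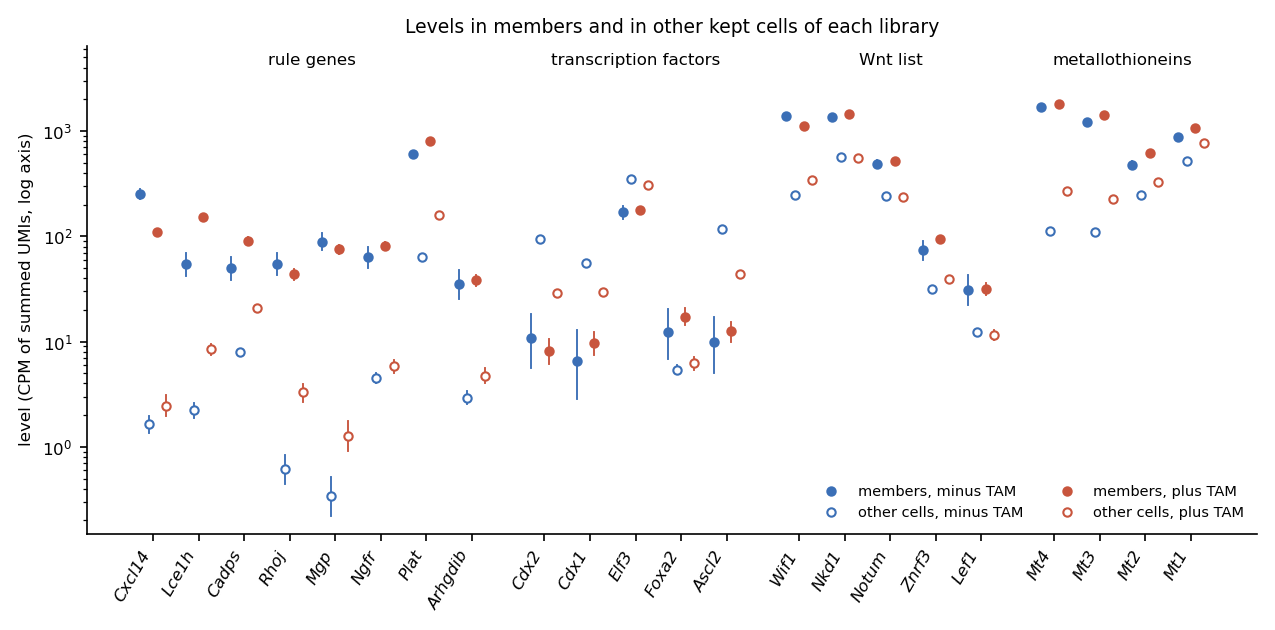
Levels in CPM of summed UMIs, on a log axis, of the 8 score genes, 5 transcription factors, 5 Wnt pathway genes and 4 metallothioneins, with filled circles for the Plat-Ngfr-Cxcl14 cells, open circles for other cells, blue for minus TAM, red for plus TAM and bars for exact 95% counting intervals. Cdx2 lies at 10.7 and 8.17 CPM in the filled circles and 94.1 and 28.8 CPM in the open ones, while Mt4 lies at 1682 and 1799 against 113 and 267 CPM.

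Cdx2 (chr5:147300805-147307270) was low in these cells in both libraries. It stood at 10.7 CPM (13 UMIs) against 94.1 CPM in other cells of minus TAM, which is 8.84-fold lower (log2 ratio -3.14, interval -4.05 to -2.37). In plus TAM it stood at 8.17 CPM (55 UMIs) against 28.8 CPM, which is 3.52-fold lower (log2 ratio -1.81, interval -2.24 to -1.42, and -1.77 among barcodes of 1 matrix). Cdx2 was thus lower in other cells of plus TAM than in those of minus TAM, while the chosen cells of the 2 libraries were at like levels. After thinning each cell to 5000 UMIs, a Cdx2 UMI was seen in 3 of 48 cells (6.25%) against 31.6% of other cells in minus TAM, and in 11 of 273 (4.03%) against 10.6% in plus TAM. The 20 cells just inside the threshold averaged 0.0164 Cdx2 UMIs per 10000, and the 20 just outside averaged 0.364. Each mean rests on 20 cells, most of them from plus TAM, and no step at the threshold is read from them. In plus TAM the chosen and unchosen cells of cluster 4, described below, held 6.04 and 6.82 CPM, and those of cluster 11 held 14.3 and 32.4 CPM.

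The Cdx2 level went down with the score, over the whole range in minus TAM and over its upper part in plus TAM. Cells at a score of 0 held 118 CPM in minus TAM and 42.0 CPM in plus TAM. The cells above 0 were divided into 5 groups of equal size over both libraries pooled. Within a library the sizes differed, from 460 cells in the lowest group to 123 in the highest in minus TAM, and from 115 to 451 in plus TAM. The group with the highest scores, into which all the chosen cells fall, held 15.9 and 9 CPM. In minus TAM each step was lower than the last, from 118 through 106, 89.5, 68.4 and 38.0 to 15.9 CPM, and in plus TAM the first 3 groups were at 41.4 to 44.3 CPM before the level dropped to 25.9, 18.6 and 9 CPM. Vim, which encodes the intermediate filament protein vimentin, ran the other way from the first group above 0 upwards, from 68.4 to 546 CPM in minus TAM and from 40.5 to 736 CPM in plus TAM. Mki67, a marker of cycling cells, was lowest in the top group of both libraries, at 5.09 and 8.26 CPM.

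**Figure D2:**
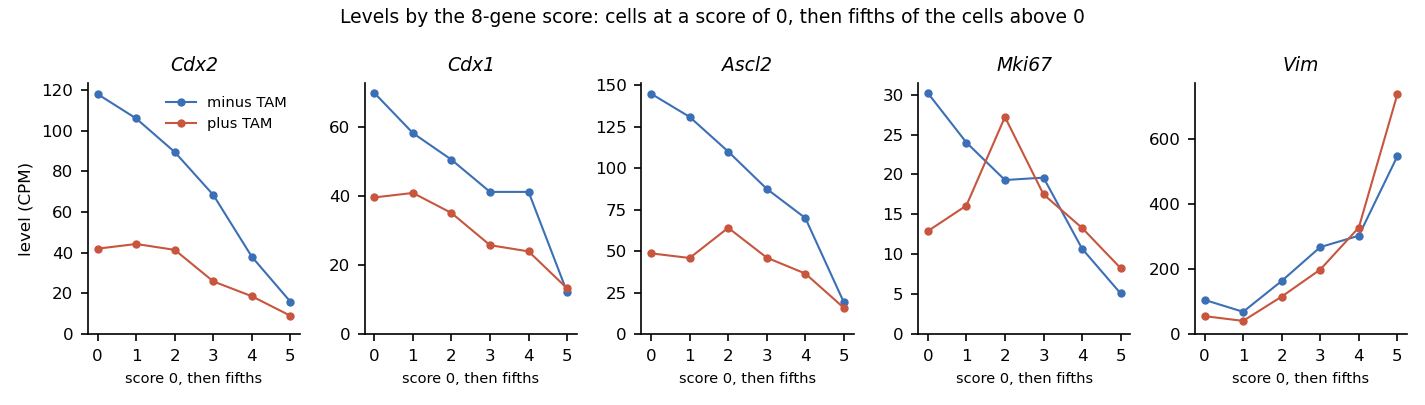
Levels in CPM of Cdx2, Cdx1, Ascl2, Mki67 and Vim in cells at a score of 0 and in 5 groups of the cells above 0 in order of score. The 5 groups are equal in size over both libraries pooled but not within a library. Blue is minus TAM and red is plus TAM, each point being 1 group of cells of 1 library. Cdx2 ends at 15.9 and 9 CPM in the top group and Vim at 546 and 736 CPM, and Mki67 in plus TAM has its highest point, 27.2 CPM, between the ends.

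Other intestinal transcription factors were low with Cdx2. Of 7474 genes with a mean of 10 or more CPM over the 4 pools, the score genes left out, 375 (5.02%) were at least 1.5-fold higher in the Plat-Ngfr-Cxcl14 cells in both libraries and 370 (4.95%) at least 1.5-fold lower in both. In minus TAM alone 742 (9.93%) were higher and 1329 (17.8%) lower, and in plus TAM alone 511 (6.84%) and 502 (6.72%). Both directions held with each counting interval excluding equal levels for 361 (4.83%) and 351 (4.70%). Being 1.5-fold apart is a size threshold and not a test, and nothing is read from these counts, since the cells were chosen on the same transcriptomes. Of 12 measured intestinal transcription factors 6 were lower in both libraries, with list medians of -0.85 and -0.42 on the log2 scale beside -0.10 and 0.01 over all measured genes. Isx, a homeobox factor of the gut, stood at 0.820 CPM (1 UMI) against 34.8 CPM in minus TAM and 1.49 against 12.6 CPM in plus TAM. Cdx1, the close relative of Cdx2, stood at 6.56 against 56.0 CPM and 9.66 against 29.5 CPM, and Hnf4a, a nuclear receptor of differentiated gut epithelium, at 4.10 against 19.6 CPM and 3.57 against 17.0 CPM. Elf3, an epithelial Ets factor, was 169 against 349 CPM and 177 against 307 CPM, and Gata6 completed the 6. Foxa2, a foregut and endoderm pioneer factor, was the list's only gene higher in both, at 12.3 against 5.42 CPM and 17.2 against 6.20 CPM. Klf5, Sox9 and Klf4, which regulate crypt and surface epithelium, had log2 ratios between -0.11 and 0.08 in both libraries.

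No measured gene of the squamous and basal list was higher in both libraries, and most stomach genes were too low to measure. The 2 measured stomach genes had list medians of 1.01 and 0.28 on the log2 scale. Of 18 stomach and foregut genes 2 were measured, and Ctse, which encodes the gastric protease cathepsin E, was higher at 16.4 against 3.59 CPM and 16.2 against 7.77 CPM (log2 ratios 2.19 and 1.06, and 0.58 in plus TAM among barcodes of 1 matrix). Sox2, a foregut factor, was at 15.6 against 2.22 CPM and 9.21 against 3.29 CPM, on 19 and 62 UMIs. No UMI was found in the chosen cells for 6 stomach genes, among them Gkn1, Muc5ac and Cldn18. Of 17 measured squamous and basal genes 9 were lower in both libraries and none higher, beside 4.95% and 5.02% of all measured genes. Krt14, a basal keratin, stood at 14.8 against 78.0 CPM and 27.6 against 158 CPM, and Krt4, a mucosal keratin, at 359.8 against 820.2 CPM and 167 against 466 CPM. Among 21 genes of the late cornified envelope family 15 had no UMI in these cells, and Lce1h gave nearly all of the family's summed level.

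Mt3 and Mt4 were among the genes with the largest ratios that stood at high levels. Metallothioneins are small cysteine-rich proteins that bind zinc and copper, Mt1 and Mt2 being widespread, Mt3 best known from brain and Mt4 from stratified squamous epithelium. The 4 genes lie side by side on chromosome 8 in the order Mt4, Mt3, Mt2, Mt1. Mt4 (chr8:94137197-94139031) stood at 1682 CPM in the Plat-Ngfr-Cxcl14 cells and 113 CPM in other cells of minus TAM, and at 1799 against 267 CPM in plus TAM, log2 ratios of 3.90 and 2.75. Mt3 (chr8:94152607-94154146) stood at 1217 against 109 CPM and 1406 against 228 CPM, ratios of 3.48 and 2.62. Both were well above other cells in each library, and the level over all chosen cells differed little between libraries. By cluster it shifted in opposite directions. Log2 ratios of plus over minus TAM chosen cells were -0.65 for Mt4 and -0.20 for Mt3 in cluster 4. They were 0.99 and 0.58 in cluster 11, and -1.16 and -0.65 in all other clusters. Cells of clusters 4 and 11, described below, were high in both genes whether chosen or not. In cluster 11 of minus TAM the unchosen cells held more, 2207 against 1883 CPM for Mt3 and 2769 against 1978 CPM for Mt4. Mt2 was higher by a smaller ratio, 479 against 246 CPM and 616 against 329.6 CPM (0.96 and 0.90). Mt1 missed the size threshold in plus TAM, at 875 against 524 CPM and 1076 against 764 CPM (0.74 and 0.49). After thinning to 5000 UMIs, Mt3 was detected in 70.8% and 77.3% of the chosen cells and 14.8% and 25% of other cells.

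The promoters of the 4 metallothionein genes are shown because the genes are neighbours that differed in ratio. Each run is RefSeq sequence of the build GRCm38.p6, from 250 bases before to 50 bases after the gene's start, and capitals mark every match to the metal response core, searched as TGCACNC or TGCGCNC on both strands. The windows are chr8:94136954-94137253 for Mt4, chr8:94152357-94152656 for Mt3, chr8:94172368-94172667 for Mt2 and chr8:94178839-94179138 for Mt1, all on the plus strand.
Mt4: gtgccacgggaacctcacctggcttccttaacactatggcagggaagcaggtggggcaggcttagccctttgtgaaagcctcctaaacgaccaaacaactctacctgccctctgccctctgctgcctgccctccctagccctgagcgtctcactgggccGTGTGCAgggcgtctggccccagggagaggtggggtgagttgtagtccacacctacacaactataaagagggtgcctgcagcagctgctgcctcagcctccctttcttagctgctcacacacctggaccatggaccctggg
Mt3: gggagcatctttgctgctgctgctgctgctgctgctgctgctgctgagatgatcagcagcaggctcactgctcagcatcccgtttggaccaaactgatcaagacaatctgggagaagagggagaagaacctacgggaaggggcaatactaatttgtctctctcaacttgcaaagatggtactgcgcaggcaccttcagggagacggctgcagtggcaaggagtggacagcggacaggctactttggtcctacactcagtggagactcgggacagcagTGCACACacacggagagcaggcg
Mt2: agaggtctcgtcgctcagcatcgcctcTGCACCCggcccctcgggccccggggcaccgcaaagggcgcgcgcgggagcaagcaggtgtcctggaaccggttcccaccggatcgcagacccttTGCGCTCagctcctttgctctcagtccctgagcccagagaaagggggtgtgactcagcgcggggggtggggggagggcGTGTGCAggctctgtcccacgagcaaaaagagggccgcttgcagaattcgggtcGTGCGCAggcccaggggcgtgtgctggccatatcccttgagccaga
Mt1: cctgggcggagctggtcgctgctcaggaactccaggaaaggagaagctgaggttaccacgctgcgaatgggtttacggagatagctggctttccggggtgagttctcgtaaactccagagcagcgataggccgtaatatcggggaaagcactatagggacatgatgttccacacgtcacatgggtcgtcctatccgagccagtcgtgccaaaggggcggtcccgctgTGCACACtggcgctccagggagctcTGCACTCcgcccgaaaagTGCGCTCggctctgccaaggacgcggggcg
The Mt4 and Mt3 windows held 1 match each, against 4 in Mt2 and 3 in Mt1. Matches and ratios did not follow 1 order over the 4 genes, since Mt2 had more matches than Mt1 and also larger ratios. At least 1 match was held by 8444 of the 32851 RefSeq promoter windows of this length (25.7%). A match of these letters is a description and not a shown binding site.

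Of 18 measured Wnt targets and antagonists 10 were higher in both libraries and none lower, beside 5.02% and 4.95% of all measured genes. The list medians were 0.85 and 1.01 on the log2 scale. Wif1, a secreted protein that binds Wnt ligands, stood at 1391 against 247 CPM in minus TAM and 1111 against 344 CPM in plus TAM, log2 ratios of 2.49 and 1.69. Nkd1, an intracellular inhibitor induced by Wnt signalling, stood at 1347 against 572 CPM and 1447 against 555 CPM, and was found in 93.8% and 96.0% of the thinned chosen cells against 66.3% and 61.9% of other cells. Notum, an enzyme that inactivates Wnt proteins, stood at 491 against 242 CPM and 523 against 237 CPM. These 3 feedback genes were at similar levels in the chosen cells of both libraries. Cells of clusters 4 and 11, described below, were high in them whether chosen or not. In cluster 4 Nkd1 stood at 1416 against 1467 CPM in unchosen cells of minus TAM and 1462 against 1261 CPM in plus TAM. In cluster 11 it stood at 1813 against 1631 CPM and 1983 against 1782 CPM. Notum in minus TAM stood at 524 against 489 CPM in cluster 4 and 624 against 835 CPM in cluster 11. In plus TAM it stood at 446 against 375 CPM and 882 against 756 CPM. Znrf3, which removes Wnt receptors from the surface, had ratios of 1.23 and 1.27, and Lef1, a nuclear partner of beta-catenin, 1.35 and 1.45. The ligand genes Wnt6 and Wnt10a were higher too, Wnt6 at 642 against 259 CPM and 546 against 245 CPM. Axin2, another Wnt feedback gene, had ratios of -0.14 and 0.40 and did not reach the threshold.

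Genes linked to stem cells were mixed. Ascl2, a Wnt-induced factor of crypt stem cells, was lower at 9.83 against 118 CPM in minus TAM and 12.5 against 43.5 CPM in plus TAM (log2 ratios -3.59 and -1.80). Smoc2, a secreted matrix protein of stem cells, was higher at 441 against 151 CPM and 187 against 88.7 CPM, as were Tnfrsf19 (1.53 and 1.44) and Znrf3. Of 15 measured stem cell genes 3 were higher and 2 lower in both libraries, beside 5.02% and 4.95% of all measured genes. Lgr5, the receptor that marks crypt base stem cells, rested on 5 and 27 UMIs, at 4.10 and 4.01 CPM. The letters CTTTGA, a TCF and LEF core searched on both strands, stood in 5257 of the 32851 promoter windows (16.0%). Of the 10 Wnt genes that were higher 7 had a window, and 2 of these, Lef1 and Sp5, held a match. A gene was counted when any of its windows held a match, and Lef1 has several windows. The count of genes and the 16.0% of windows are therefore unlike measures, and they are not compared.

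**Figure D3:**
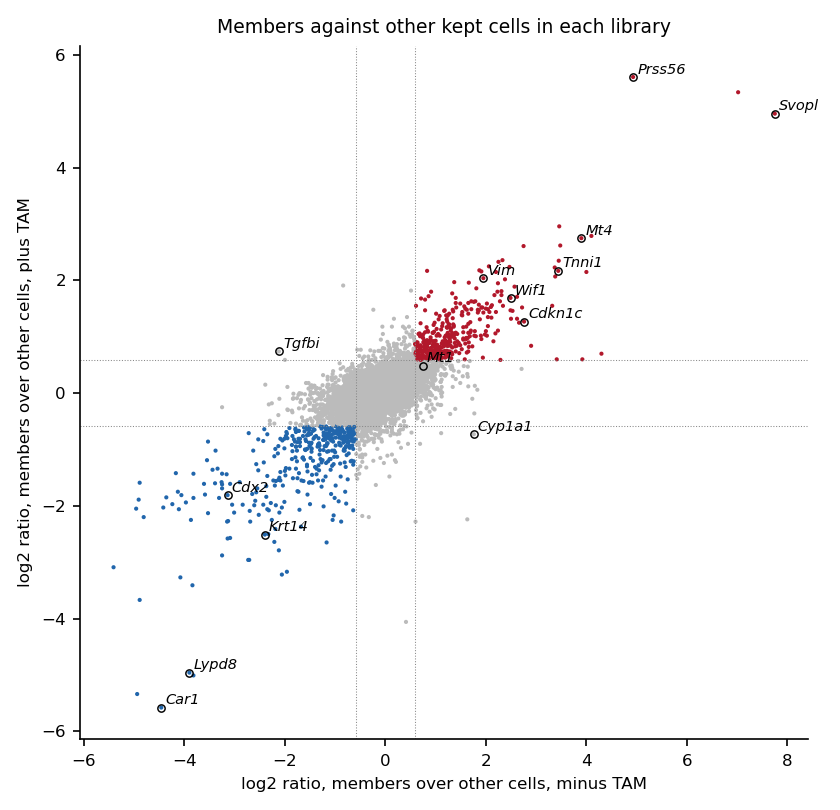
Log2 ratio of the Plat-Ngfr-Cxcl14 cells over other cells in minus TAM (horizontal axis) and plus TAM (vertical axis), 1 point per measured gene, with dotted lines at 1.5-fold, red for genes higher in both libraries and blue for genes lower in both. Mt4 lies at 3.90 and 2.75 and Cdx2 at -3.14 and -1.81, while Cyp1a1 at 1.76 and -0.73 and Tgfbi at -2.12 and 0.74 lie in opposite corners.

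Further genes with large ratios encode signals, cytoskeletal proteins and enzymes. Vim was 602 against 156 CPM and 889 against 217 CPM (log2 ratios 1.95 and 2.04), and it was found in 70.8% and 74.0% of thinned chosen cells against 25.2% and 29.9%. Bmp2, a bone morphogenetic protein made by differentiated gut epithelium, was 128 against 12.3 CPM and 201 against 42.7 CPM, and Bmp7, a related ligand, 134 against 36.9 CPM and 107 against 38.8 CPM. Tnni1, the slow skeletal troponin I, was 120.5 against 11.1 CPM and 79.8 against 17.7 CPM. Etv5, an Ets factor induced by MAPK signalling, was 58.2 against 12.4 CPM and 81.0 against 20.9 CPM. Cdkn1c, an inhibitor of cyclin-dependent kinases, was 202 against 30 CPM and 110.2 against 45.7 CPM. All 6 were at least 1.5-fold higher in each library, and the ratio was the larger in minus TAM for each except Vim. Glul, the glutamine synthetase gene, was 720.4 against 229.8 CPM and 775 against 256 CPM. Apoc4, an apolipoprotein gene, Ecm1, a secreted matrix protein, Gnai1, an inhibitory G protein subunit, Pycr1, an enzyme of proline synthesis, Cxcl5, a neutrophil-attracting chemokine, Fgfrl1, Lhpp and Fam89a complete the 15 highest named genes, with ratios of 1.5 to 3.32. Cxcl5 was uneven, found in 5 of 49 and 110 of 286 chosen cells, and Apoc4 was found in 33 and 183.

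Over the 4186 kept cells the genes outside the score whose level ran most closely with it were Wif1, Hacd2 and Ptn (Spearman coefficients of 0.47 each), Mt3 (0.46), Pdlim4 (0.43), Stra6 and Lamp2 (0.42), Tcf4 and Aspscr1 (0.41) and Rps28 (0.38). Ptn encodes pleiotrophin, a heparin-binding growth factor, and stood at 1292 against 224 CPM and 840.2 against 305 CPM. Stra6 encodes a receptor for retinol-binding protein and Lamp2 a lysosomal membrane protein. The most negative coefficients belonged to Chchd10 (-0.43), a mitochondrial protein gene, Lgals4 (-0.41), a galectin of gut epithelium, and Areg (-0.35) and Cdx2 (-0.35). The cells share libraries and depth, and these coefficients are a description.

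Genes of mature colon surface cells were at the bottom of the range. Of 9 measured colonocyte genes 6 were lower in both libraries and none higher, beside 4.95% and 5.02% of all measured genes. The list medians were -2.33 and -2.50. Car1, the carbonic anhydrase of colonocytes, had no UMI in the 49 minus TAM cells against 54.1 CPM in other cells, at least 22.0-fold lower when the pool of 49 cells takes a floor of 3 counts, and 6.39 against 306 CPM in plus TAM (log2 ratio -5.58). Among barcodes of 1 matrix the Car1 ratio in plus TAM was only -1.17. Lypd8, which keeps bacteria off the colon surface, was 13.1 against 196 CPM and 10.8 against 338 CPM (-3.90 and -4.96, and -2.74 for barcodes of 1 matrix). Lgals4 was 145 against 951 CPM and 116 against 905 CPM, and Phgr1, Ceacam1 and Cdhr5, genes of the gut surface, were lower in both as well. The distance in plus TAM thus depended for Car1 and Lypd8 on whether shared barcodes were counted. Car1 in other cells was also concentrated in few cells. In cluster 13 of the clusters described below it stood at 8502 CPM, against 39.4 CPM in all remaining kept cells. That cluster held 32 cells, 28 of them from plus TAM, and no chosen cell. Krt20, a keratin of surface cells, was 7.38 against 5.57 CPM in minus TAM, 8 of its 9 UMIs coming from 1 cell, and 1.63 against 27.2 CPM in plus TAM.

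Of 21 measured genes linked to fetal-like or regenerating gut epithelium 10 were lower in both libraries and none higher. Of all measured genes 4.95% were lower and 5.02% higher. Ly6a, the Sca-1 gene that marks such epithelium, was 715 against 1771 CPM and 975 against 2074 CPM. Areg, an EGFR ligand, was 149 against 688 CPM and 70.1 against 438 CPM, and Clu, the clusterin gene of revival stem cells, was 37.7 against 81.3 CPM and 162 against 363 CPM. Clu was concentrated in cluster 3 of the clusters described below, at 1233 CPM against 71.6 CPM in all remaining kept cells. Sprr1a of the same list stood there at 704 against 35.8 CPM. Cluster 3 held 299 cells, 266 of them from plus TAM, and 13 of its cells were chosen. How far the list's ratios in plus TAM rest on that cluster was not tested. Anxa1, an annexin of injured epithelium, differed little, at 956 against 1026 CPM and 1084 against 1343 CPM. The YAP target F3, which encodes tissue factor, was 45.9 against 154 CPM in minus TAM and lower in plus TAM as well (-1.74), while Rbms3 and Tead1 of the YAP list were higher. Lgals3, Ctsc, Ckmt1, Serpinb7, Sprr2a3 and Sprr1a were also among the 15 lowest named genes, with Sprr1a resting on 1 UMI in minus TAM.

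Genes of the cell cycle were low. All 20 measured G2 and M phase genes were lower in both libraries, with medians of -3.89 and -1.86. So were 15 of 22 S phase genes, with medians of -1.52 and -0.72. Of all measured genes 4.95% were lower in both. Mki67 was 1.64 against 23.2 CPM (2 UMIs) and 4.61 against 16.8 CPM. Ube2c, a ubiquitin enzyme of mitosis, was 6.56 against 183 CPM and 29.4 against 136 CPM. Mki67 was concentrated in clusters 7 and 8 of those described below, at 88.5 CPM in cluster 7. No other cluster exceeded 4.59 CPM. Clusters 7 and 8 held 620 and 226 cells, 8 and 6 of them chosen. In cluster 4 Mki67 stood at 1.53 against 1.82 CPM in unchosen cells of minus TAM and 1.65 against 5.69 CPM in plus TAM. In cluster 11 it stood at 3.67 against 2.28 CPM and 3.31 against 1.10 CPM, on 6 UMIs or fewer. How far the lists' ratios rest on clusters 7 and 8 was not tested. The median chosen cell gave 0.00779% and 0.00653% of its UMIs to the G2 and M phase list, against 0.0183% and 0.00894% in other cells. Cdkn1a, the p21 gene, differed little at 676 against 716 CPM and 582 against 615 CPM. The share of UMIs from ribosomal protein genes was close in all pools, with medians of 23.2% and 22.5% in chosen cells and 22.6% and 23.7% in other cells.

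Fibroblast markers were near 0 in the chosen cells, immune, endothelial and glial lists summed to low levels, and tuft and some other secretory genes were higher than in other cells in 1 or both libraries. Of 13 fibroblast markers 11 had no UMI, Col1a1, Col3a1, Dcn and Pdgfrb among them, and the summed list stood at 0 and 0.743 CPM against 1.49 and 2.30 CPM. The immune list summed to 11.5 and 9.95 CPM against 11.1 and 18.1 CPM, with Cd3e, Itgam, Lyz2 and Tyrobp at 0. The endothelial list summed to 12.3 and 19.6 CPM against 12.5 and 23.0 CPM, and the list of glia and neurons to 12.3 and 20.8 CPM against 15.7 and 22.5 CPM, with Sox10 and Gfap at 0. Of 18 enteroendocrine genes 15 were at 0, Chga included, and the list summed to 21.3 against 8.74 CPM in minus TAM and 37.9 against 36.7 CPM in plus TAM, nearly all of it from Cpe, a peptide-processing enzyme gene (log2 ratios 1.65 and 0.12). The goblet list summed to 65.6 against 86.7 CPM and 79.9 against 47.6 CPM, with Reg4 its only measured gene and Atoh1 and Spdef at 0. Tuft cell genes summed to 189 and 57.5 CPM against 99.4 and 38.6 CPM, carried by Avil and Ptgs1, while Pou2f3, Trpm5 and Dclk1 were at 0. The part of these genes in the other results was not tested. Of 18 measured epithelial genes none was higher in both libraries and Krt19 and Lgals4 were lower, beside 5.02% and 4.95% of all measured genes. The epithelial list summed to 14758 against 17923 CPM and 14140.4 against 20709.5 CPM. Within it Epcam, at 916 and 893 CPM against 899 and 966 CPM, and Cdh1, at 85.2 and 125 CPM against 91.2 and 138 CPM, were close to other cells.

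Most pathway partners of the score genes stayed within the size threshold or were too low to measure. Beside the counts below, 5.02% of all measured genes were higher and 4.95% lower in both libraries. In the neurotrophin list Maged1, an intracellular partner of p75, was higher (168 against 82.4 CPM and 126 against 76.0 CPM). In the plasminogen list Plaur, the urokinase receptor, had ratios of 0.81 and -0.10, S100a10, a plasminogen receptor subunit, -0.53 and -0.34, and its partner Anxa2 was lower at 513 against 873 CPM and 742 against 1259 CPM. Plau, the other plasminogen activator, was at 1.64 CPM or less in every pool, and Plg, the gene of plasminogen, had no UMI in the chosen cells. Stx1a and Vamp2, membrane fusion proteins of vesicle release, were higher among 7 measured genes of regulated secretion (1.08 and 0.76 for Stx1a, 0.70 and 0.59 for Vamp2). Of 9 measured chemokines Cxcl5 was higher and Ccl5, Ccl20 and Cxcl16 lower. Of 17 measured BMP and TGF-beta genes Bmp2 and Bmp7 were higher in both libraries, while the targets Id1 (-0.95 and -0.31) and Id3 (-0.44 and 0.32) were not.

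Most of the chosen cells fell into 2 of 14 clusters that were made without the 8 genes. Cluster 4 held 169 of the 335 (50.4%) and cluster 11 held 100 (29.9%), and the chosen cells were 43.9% and 39.8% of these clusters. The division was alike in the 2 libraries, with 49.0% of minus TAM and 50.7% of plus TAM chosen cells in cluster 4, and 26.5% and 30.4% in cluster 11. Cluster 0 was uneven, with 9 minus TAM cells (18.4%) and 2 plus TAM cells (0.699%). It also held 11.1% of kept minus TAM and 1.27% of kept plus TAM cells. Cluster 6 was uneven the other way, with 0 and 18 chosen cells (6.29%), and 3.13% and 21.8% of kept cells. Clusters 4 and 11 themselves were larger in plus TAM, cluster 4 holding 3.20% of kept minus TAM and 19.9% of kept plus TAM cells, and cluster 11 holding 2.79% and 11.7%. Among the 15 nearest neighbours of a chosen cell 45.8% on average were chosen cells too, against 3.97% for other cells. The share was 31.2% for minus TAM and 48.3% for plus TAM chosen cells.

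**Figure D4:**
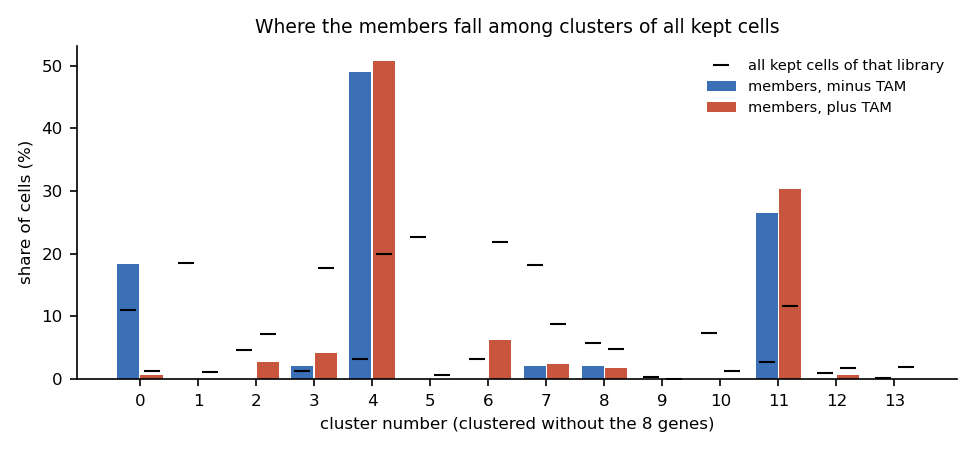
Share of the Plat-Ngfr-Cxcl14 cells of each library that falls in each of 14 clusters (bars, blue for minus TAM and red for plus TAM), with a black dash at the share of all kept cells of that library. Clusters 4 and 11 hold 49.0% and 26.5% of the blue cells and 50.7% and 30.4% of the red ones, where the dashes stand at 3.20% and 2.79%, and 19.9% and 11.7%.

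The 2 clusters differed in their leading genes. Cluster 4 was led by Cxcl5, Mt4, Mt3, Ecm1 and Gstm7. Cluster 11 was led by Prss56, a serine protease gene, Igf1, a growth factor gene, the lipase-related gene Pnliprp1, the mast cell tryptase gene Tpsb2 and the thrombospondin gene Thbs2. Chosen cells of cluster 11 held more Vim, 1332 and 2042 CPM in minus and plus TAM, than those of cluster 4, at 467 and 527 CPM, and fewer UMIs, with medians of 20595 and 19825 against 25360.5 and 24111. Prss56 came from few cells, 1 of 13 in minus TAM (334 CPM) and 10 of 87 in plus TAM (440.2 CPM). In cluster 4 the cells that missed the threshold were also low in Cdx2 and high in Wif1. Cdx2 was at 1.53 CPM (1 UMI) and 6.04 CPM in its chosen cells and 8.5 and 6.82 CPM in the rest of the cluster, and Wif1 at 1262 and 1072 CPM against 1140.1 and 806 CPM. Vim did not separate chosen cells from the rest of their cluster, at 467 against 871 CPM in minus TAM and 527 against 512 CPM in plus TAM in cluster 4, and 1332 against 1472 CPM and 2042 against 1744 CPM in cluster 11. In cluster 11 Cdx2 was higher, at 33.0 and 14.3 CPM in chosen cells against 35.7 and 32.4 CPM, and 9 of the 13 Cdx2 UMIs of the minus TAM chosen cells came from this cluster. The low Cdx2 level of the chosen cells in minus TAM was therefore that of cluster 4 more than that of cluster 11.

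A smaller set of 12 minus TAM and 54 plus TAM cells lay in other clusters and differed from the main body. Lce1h was the largest term of the score in 16 of these 54 plus TAM cells, and it stood at 610.2 CPM there against 44.6 CPM in plus TAM cells of clusters 4 and 11. Clu, Sprr1a and Ube2c stood at 710.3, 283 and 127 CPM in the 54 cells, against 33.4, 27.9 and 6.6 CPM in the 232 plus TAM cells of clusters 4 and 11. Single cells weighed heavily in these sums, 1 cell giving 43.0% of the Clu, 35.4% of the Ube2c and 23.7% of the Sprr1a UMIs of all 286 plus TAM chosen cells. Wif1 was lower in them, 497 against 1255 CPM, as was Vim, 282 against 1031 CPM. With clusters 4 and 11 alone, 358 of the 375 genes higher in both libraries and 348 of the 370 lower were found again. Of the genes that differed between the chosen cells of plus and minus TAM, described next, 503 of 681 higher and 216 of 293 lower were found again.

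Between the libraries, the chosen cells of plus TAM differed from those of minus TAM in a minority of genes. Of 7355 genes with a mean of 10 or more CPM over the 2 pools of chosen cells, 681 (9.26%) were at least 1.5-fold higher in plus TAM and 293 (3.98%) at least 1.5-fold lower. In other cells the same genes gave 525 (7.14%) and 588 (7.99%). The counting interval excluded equal levels for 469 (6.38%) and 218 (2.96%) of them in the chosen cells. The level in the 49 cells of minus TAM often rests on few cells, and for Cyp1a1, Cd177 and Ceacam10 a single cell gave 21.4%, 26.5% and 25.8% of the minus TAM UMIs.

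Cyp1a1, a detoxifying enzyme induced through the aryl hydrocarbon receptor, had the largest ratio toward minus TAM among genes with a mean of 50 or more CPM over these 2 pools. It stood at 138 CPM in minus TAM chosen cells, 12 of 49 with a UMI, and at 8.47 CPM in plus TAM, 24 of 286 with a UMI, a log2 ratio of -4.02 (interval -4.48 to -3.58) beside -1.53 in other cells. It was high in minus TAM cells of cluster 4, at 215 against 13.2 CPM in plus TAM, and of clusters other than 4 and 11, at 88.7 against 3.13 CPM, with 3.67 and 2.76 CPM in cluster 11. Cd177, a surface protein gene, and Ceacam10, an adhesion protein gene, were lower in plus TAM at 155 to 15.3 CPM and 178 to 27.8 CPM, while other cells had ratios of -0.02 and 0.13. These came from cluster 11, at 668 against 46.3 CPM for Cd177 and 774 against 83.3 CPM for Ceacam10. Svopl, a transporter-like gene, was 157 against 14.0 CPM, with 3 minus TAM cells holding its UMIs and 53.6% of them in 1 cell. Smoc2 was 441 against 187 CPM and found in 48 of 49 and 215 of 286 cells, a ratio of -1.23 beside -0.76 in other cells. Klf2, a shear- and quiescence-linked factor, was 170.5 against 81.4 CPM (-1.07 beside 0.01). Avil, which encodes advillin, and Atf5, a stress-response factor, were lower in plus TAM in chosen cells (-1.95 and -1.59) and in other cells (-2.50 and -1.77). Both have exons that overlap genes on the opposite strand.

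Of the score genes, Cxcl14 was lower in plus TAM chosen cells, at 110.2 against 253 CPM (log2 ratio -1.20, and -1.87 among barcodes of 1 matrix), in cluster 4 (132 against 293 CPM) and in cluster 11 (127 against 385 CPM). Cadps was higher by a log2 ratio of 0.85, reaching 90.3 CPM. Lce1h was 152 against 54.1 CPM, a log2 ratio of 1.49 that was 0.21 among barcodes of 1 matrix, from 6 of 49 cells in minus TAM. Plat, Ngfr, Mgp, Rhoj and Arhgdib had ratios between -0.33 and 0.41. By cluster the last 3 shifted in opposite directions. In cluster 4, cluster 11 and all other clusters the ratios were -0.81, 1.81 and -1.59 for Mgp and -0.48, 2.20 and -2.62 for Rhoj. For Arhgdib they were -0.33, 2.64 and -0.46. The minus TAM levels in cluster 11 rested on 12, 4 and 2 UMIs of these genes. Plat and Ngfr had ratios of 0.05 or more in each.

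By the same level limit Ifit1, an interferon-induced gene, had the largest ratio toward plus TAM, 99.4 against 11.5 CPM (log2 ratio 3.11, interval 2.36 to 3.99), with 14 UMIs in minus TAM, 30.6% of its plus TAM UMIs in 1 cell and a ratio of 2.38 among barcodes of 1 matrix. Clu was 162 against 37.7 CPM (2.10), with 39.1% of the minus TAM and 43.0% of the plus TAM UMIs in 1 cell each and 1.06 among barcodes of 1 matrix. These 2 ratios therefore lean on single cells. Broader were Htra1, a secreted serine protease gene, at 108 against 32.0 CPM in 204 of 286 and 19 of 49 cells (1.76, interval 1.29 to 2.26, beside 1.05 in other cells), and Sox17, an endoderm factor that restrains Wnt signalling, at 97.3 against 31.1 CPM in 176 and 22 cells (1.64 beside 0.19). Gadd45g, a growth arrest gene, was 165 against 61.5 CPM (1.43 beside 0.38), and Skil, a repressor of SMAD signalling, 74.0 against 26.2 CPM (1.27 in other cells). Htra1, Sox17, Skil and Gadd45g were higher in plus TAM in cluster 4 and in cluster 11, for Sox17 at 105 against 29.0 CPM and 50.2 against 14.7 CPM. The minus TAM level of Sox17 and Htra1 in cluster 11 rested on 4 UMIs each. Rnase4, a secreted ribonuclease gene, and Aspa, aspartoacylase, were also higher (1.35 and 1.26) where other cells had -0.47 and -0.18.

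**Figure D5:**
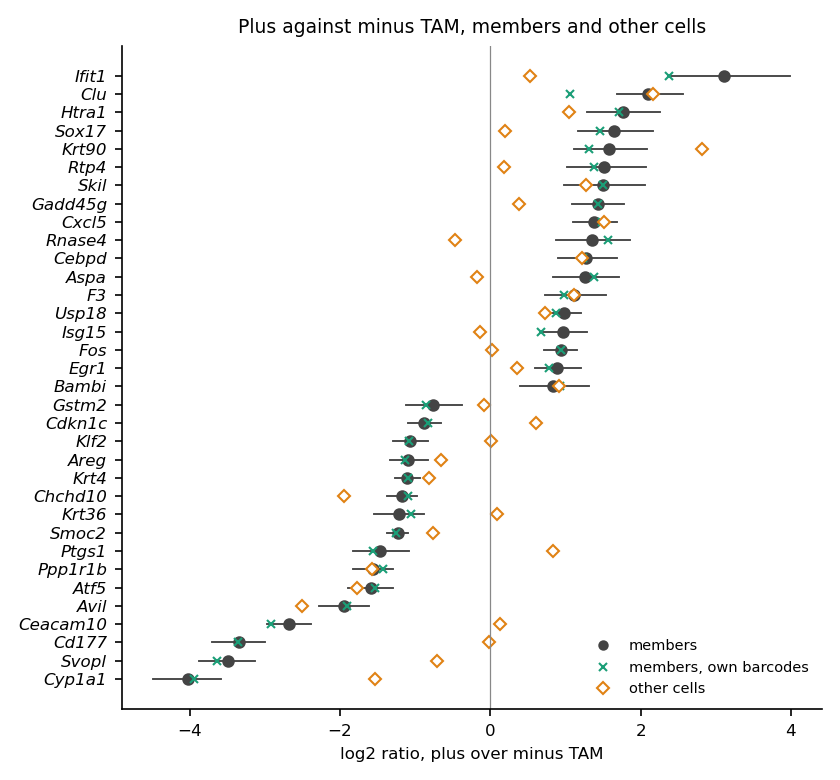
Log2 ratio of plus TAM over minus TAM for the 12 highest and 12 lowest named genes and further genes of the lists, with dots and exact 95% counting intervals for the Plat-Ngfr-Cxcl14 cells, crosses for those whose barcode is in 1 matrix only, and open diamonds for other cells. Ifit1 lies at 3.11 with its diamond at 0.53, Clu at 2.10 with its cross at 1.06, and Cyp1a1 at -4.02 with its diamond at -1.53.

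By list, 12 of 19 measured interferon and MHC genes were at least 1.5-fold higher in plus TAM chosen cells and none lower, with a median of 0.78 in them and 0.49 in other cells, beside 0.03 and -0.06 over all measured genes. Isg15, a ubiquitin-like protein, was 149 against 76.2 CPM, Bst2, tetherin, 314 against 183 CPM, and Usp18, which removes Isg15 from proteins, 295 against 149 CPM. Of 17 BMP and TGF-beta genes 9 were higher and none lower, with medians of 0.65 and 0.27. They included the antagonist genes Fst and Bambi, the inhibitory Smad7 and the target Id3 (741 against 457 CPM). Tgfbi, a TGF-beta induced matrix gene, was 20.5 against 2.46 CPM, the latter on 3 UMIs. Of 22 immediate early genes 7 were higher, among them Fos (307 against 161 CPM) and Egr1 (146 against 78.7 CPM), and Klf2 was lower, beside 9.26% and 3.98% of all measured genes. The median of that list was 0.29 in chosen cells and 0.33 in other cells. Of 25 genes of the amino acid stress response 9 were lower in plus TAM and Ddit4 higher, with medians of -0.17 and -0.39. Asns, asparagine synthetase, was 112 against 181 CPM, and Cth, an enzyme of cysteine synthesis, 6.69 against 29.5 CPM. Of 18 Wnt genes 5 were higher and none lower, beside the same 9.26% and 3.98%, and Wif1, Nkd1 and Notum had ratios of -0.32, 0.10 and 0.09. Vim was 889 against 602 CPM (0.56), Mt3 and Mt4 had ratios of 0.21 and 0.10, and Cdx2 had one of -0.38 with an interval of -1.27 to 0.61, so that no difference in Cdx2 between the chosen cells of the 2 libraries was detectable at this depth.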

How the data were processed

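Single-cell 3′ RNA-seq libraries (10x Chromium v2) of 2 organoid cultures were used. The UMI counts were deposited by the authors as filtered gene by barcode matrices, which per the file headers came from Cell Ranger 3.1.0, on mm10 per the submitters' processing notes. Each group is 1 library, so ratios have no replicate check and no p-value is given. The cells and all 40 gene lists were chosen with earlier results of these data known.

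Cells were filtered and scored as described above. The filters removed 931 (25.7%) and 579 (27.9%) barcodes. UMI counts were added up over the chosen and over the other cells, library by library, and expressed as CPM. Log2 ratios carry exact conditional binomial 95% intervals, and shares carry exact Clopper-Pearson intervals. Genes were called higher or lower at 1.5-fold in both libraries with a mean of 10 or more CPM. A pool at 0 takes a floor of 3 counts.

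Named genes are the score genes, Cdx2, N6amt1, fixed genes, the 15 highest and 15 lowest of the first contrast and 12 of each of the second at a mean of 50 or more CPM, up to 4 for each list and contrast, leading cluster genes and the 10 most like the score. Genes outside this rule that are named (Wnt6, Wnt10a, Notum, Elf3, Fos and others of the lists) were chosen after their values were seen.

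Clustering used scanpy 1.11.5 and leidenalg 0.10.2 (2000 genes without the score genes, 30 components, 15 neighbours, resolution 0.8). Scrublet marked 12 (0.447%) and 3 (0.200%) cells, and no cell was removed as a doublet. Gene positions were taken from GENCODE M21, which held 30934 of the 31053 gene identifiers. Some genes of the lists are not reported here.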

Additional observations from a re-analysis of the deposited data

Results flagged for a closer look

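A few genes had ratios of at least 1.5-fold in opposite directions in groups under the same comparison. None of these differences was tested, since each library is a single sample.

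Between chosen and other cells, 8 of 7474 genes went opposite ways in the 2 libraries. Among the named genes, Cyp1a1 had a log2 ratio of 1.76 in minus TAM and -0.73 in plus TAM. Tgfbi had -2.12, on 3 UMIs, and 0.74. Ifit1 had -2.00 and 0.59, the latter 0.06 among barcodes of 1 matrix. Ccl2, a monocyte-attracting chemokine, had 1.63 and -2.24, with all of its minus TAM UMIs in 1 chosen cell.

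Between plus and minus TAM, 25 of 7347 genes went opposite ways in chosen and other cells. Cdkn1c was lower in chosen cells of plus TAM (-0.88) and higher in other cells (0.61). Tnni1 had -0.59 and 0.67, and Ptgs1, the prostaglandin synthase gene, had -1.46 and 0.83, with 35.5% of its minus TAM UMIs in 1 cell. Higher in chosen cells and lower in other cells were Car2, a carbonic anhydrase gene (0.77 and -0.90), Cdca7, a gene of dividing cells (0.69 and -1.38), Cdk1, the mitotic kinase (1.01 and -0.67), and Reg4, a goblet and secretory cell gene (0.81 and -0.91). Cdk1 and Cdca7 rested on 13 and 14 UMIs in the chosen cells of minus TAM, and 36.9% of the plus TAM Reg4 UMIs came from 1 cell.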

How the results depend on the processing

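Of 120 recomputed values none reversed, 27 moved and 93 did not, a count of genes being taken as moved beyond 1.5 times and a share or ratio beyond its counting interval. The shares of chosen cells (1.82% and 19.1%) came to 2.90% and 16.9% with no cell filter, 1% and 12.1% at the top 5%, 2.53% and 23.4% at the top 10%, and by construction 8% and 8.01% with the top 8% taken within each library. Scored after thinning, the minus TAM share was 2.91%. The Cdx2 ratio in minus TAM (-3.14) was -4.98 at the top 5%, -2.35 within libraries and -2.33 after thinning, and in plus TAM (-1.81) it was -2.73 within libraries. The cause was not tested. Genes higher and lower in both libraries (375 and 370) numbered 130 and 90 at a mean of 50 CPM, where fewer genes are tested, 1120 and 800 with no minimum, and 142 and 160 at 2-fold. Genes higher and lower in chosen cells of plus TAM (681 and 293) numbered 91 and 72, 2071 and 1475, and 192 and 53 at the same settings. The 293 became 575 within libraries. When the highest chosen cell of each gene was left out, the 681 became 995 and the 293 became 146. A single cell is a larger part of the 49 minus TAM cells than of the 286 plus TAM cells. Leaving it out therefore tends to raise the ratios of plus over minus TAM by construction, and nothing is read from these 2 counts. That last alternative, the clusters 4 and 11 alone, the score without Lce1h and the intervals were chosen after seeing the data. No paired analysis was possible because each group is 1 library, and for the same reason no replicate could be left out. The 49 minus TAM cells set the depth limit, with 1 UMI in that pool worth 0.820 CPM.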

Other observations

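Further lists were mixed in the chosen cells, where 5.02% of all measured genes were higher and 4.95% lower in both libraries. Of 8 measured Notch genes, the target Hes1 (1309.6 against 541 CPM in minus TAM and 1536 against 924 CPM in plus TAM) and the receptor Notch1 were higher in both libraries, and the ligand Jag1 and the feedback gene Nrarp were lower. Of 19 genes of EGFR and MAPK feedback, Dusp6 (113 against 60.6 CPM and 97.0 against 64.7 CPM), Spry1 and Etv5, which restrain or report MAPK signalling, were higher, and the ligand genes Areg and Btc (9.01 against 43.8 CPM and 11.4 against 44.1 CPM) and the Ets factor Etv4 were lower. Of 13 genes of NF-kB signalling and mucosal defence 4 were lower, Slpi and Tnfaip3 among them, and none was higher. No gene of 22 in the ribosome biogenesis list passed the size threshold in both libraries in either direction.

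Within plus TAM, chosen cells made up 53 of the 199 cells with an N6amt1 UMI (26.6%, exact interval 20.6 to 33.3) and 233 of the 1300 without (17.9%, 15.9 to 20.1). In minus TAM the shares were 1.83% and 1.82%. Cells were not matched for depth, and the difference was not tested.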
